A study of Mus musculus with 2 samples.

Results

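Follicular B cells are the mature, recirculating B cells of blood, spleen and lymph nodes. In the single-cell RNA sequencing of mouse peripheral blood described here they were selected on measured UMIs, chiefly at least 1 of Fcer2a, the gene of the low-affinity IgE receptor CD23, and there were 2191 of them among 36612 barcodes in all. They had 200 to 6000 detected genes, under 10% of their UMIs (unique molecular identifiers, 1 per captured transcript) from mitochondrial genes and under 20% from haemoglobin genes. A member also had at least 3 UMIs of Cd79a, Cd79b and Ms4a1 together, none of Cd3d, Cd3e or Cd3g, and fewer than 3 of 7 platelet genes. The blood came from 21-week-old male C57BLKs/J mice that were wild-type (wt) or db/db, with 3 mice and 200 µl of blood drawn from behind the eye per genotype and red cells lysed before loading. db/db mice are homozygous for a mutation of the leptin receptor gene Lepr, and become obese and diabetic. Each genotype gave 1 library, the 3 mice of a genotype cannot be told apart, and the difference between genotypes therefore has no replicate check. The wt library held 1279 of the cells and the db/db library 912. Every interval given is a 95% interval for counting error only, since a UMI sum from a single library carries no variation between animals, and no p-value is given.

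As background, a naive follicular B cell carries IgM and IgD with the same variable region, made by alternative splicing of a single long transcript, so that Ighm and Ighd UMIs in the same cell mark a cell that has not switched class. CD23 appears as immature B cells complete their maturation in the spleen, stays on follicular B cells, and is low or absent on B1 cells, on marginal zone B cells and after class switching. These cells circulate between follicles and blood by receptors that include S1pr1, Ccr7 and Cxcr5, depend on the cytokine BAFF through its receptor Tnfrsf13c, and present antigen to T cells on MHC class II.

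The cells were shallow but alike in depth: the median member had 2360 UMIs and 1053 genes in wt (502 to 8715 UMIs) and 2196 UMIs and 1015.5 genes in db/db (584 to 11037 UMIs), for 3176483 and 2176097 UMIs in sum. Signs of RNA quality differed between the libraries in these cells. The median share of the rRNA-overlapping transcript Gm42418 was 2.60% in wt and 0.453% in db/db, that of the nuclear RNA Malat1 3.31% and 2.23%, that of mitochondrial genes 5.05% and 4.03%, and that of ribosomal protein genes 25.6% and 29.1%. Their part in the differences between genotypes was not tested. The libraries shared 91 barcodes, and 7 wt and 6 db/db members had a barcode that also occurs in the other library. Lepr itself had 0 UMIs in the members of both libraries, which allows up to 0.944 CPM (a gene's UMIs scaled to a total of 1e6) in wt and 1.38 CPM in db/db, so the genotype could not be checked on it.

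The rule passed 16700 wt barcodes through the filters on genes and mitochondrial share (5727 left), haemoglobin (3645), B cell genes (2481), T cell genes (2425) and platelet genes (2344), and 1279 of these B cells had an Fcer2a UMI. The same steps in db/db went from 19912 to 6109, 3933, 2588, 2544, 2150 and 912. Follicular B cells were 22.3% (exact Clopper-Pearson interval 21.3 to 23.4) of the 5727 wt barcodes that passed the first filter. In db/db the share was 14.9% (14.04 to 15.8) of 6109. The ratio, db/db over wt, was 0.668 (0.613 to 0.728). Their share of the gated B cells was 54.6% (52.5 to 56.6) in wt and 42.4% (40.3 to 44.5) in db/db, and the ratio was 0.777 (0.713 to 0.847). The shares follow from the level of Fcer2a, which chose the cells, and from how deeply they were read, so they describe the gate and are not cell numbers in blood.

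Fcer2a was sparse, as the plot of its UMIs per B cell shows. In wt, 594 members (46.4%) had 1 UMI, 349 (27.3%) had 2, 186 (14.5%) had 3 and 150 (11.7%) had 4 or more, up to 9. In db/db, 572 (62.7%) had 1 UMI, 219 (24.01%) had 2, 86 (9.43%) had 3 and 35 (3.84%) had 4 or more, up to 7. Cells with a single Fcer2a UMI thus made up most of the db/db members but less of the wt members. Just outside the threshold, 1065 wt and 1238 db/db B cells had 0 Fcer2a UMIs, at nearly the depth of those with 1 (median 2162 against 2166 UMIs in wt and 2139 against 2134 in db/db). As a measure of stray RNA, 14 of 417 T cells (3.36%) had an Fcer2a UMI in wt and 2 of 244 (0.820%) in db/db. These T cells were gated to have no Cd79a, Cd79b or Ms4a1 UMI, which leaves out barcodes with stray RNA of those genes. The T cell shares of B cell genes, here and further on, can therefore run low. At the other limits of the rule the cells just inside and just outside were few: 43 and 17 wt cells and 8 and 9 db/db cells with 3 or 2 B cell UMIs, 45 and 9 wt cells and 87 and 64 db/db cells with 2 or 3 platelet genes.

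**Figure D1:**
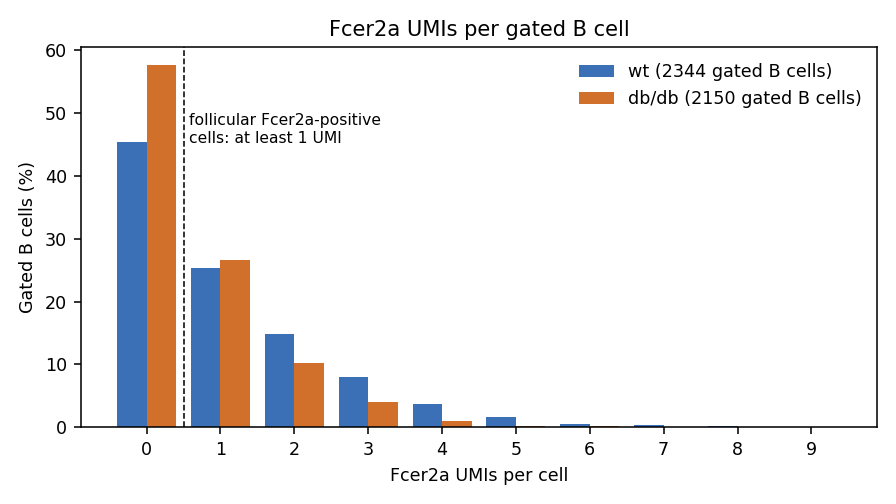
Bars give the share of gated B cells (percent) by number of Fcer2a UMIs in the cell, wt in blue and db/db in orange. Cells at 0 UMIs are the Fcer2a-zero B cells left out by the rule, and the db/db library holds more of them (1238 against 1065 cells).

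The B cell part of the label was checked on Ighd, Fcmr and Cr2, since Fcer2a, Cd79a and Ms4a1 were part of the gate. Where a pair of values is given without a library, the first is wt and the second db/db. Ighd, which marks mature naive B cells, was at 1716 CPM (wt) and 1652 CPM (db/db), and Fcmr, the IgM Fc receptor, at 761 and 741 CPM. To compare shares of cells, each cell was thinned at random to 1000 UMIs, which left 1227 wt and 900 db/db members and left out 52 and 12 shallower ones. After thinning 79.7% and 76.8% of members had an Ighd UMI (94.4% and 91.7% before) against 3.37% and 1.67% of T cells, and 49.7% and 51.0% had an Fcmr UMI (73.96% and 74.9% before) against 0.721% and 0% of T cells. Both shares were far above the T cell background, whose median depths were 3278 and 2850.5 UMIs. The T cell gate allowed no Cd79a, Cd79b or Ms4a1 UMI, so this comparison speaks to B cell identity and not to the follicular state. Among thinned Fcer2a-zero B cells of the same libraries, 65.5% and 68.8% had an Ighd UMI and 47.5% and 48.3% an Fcmr UMI. Cr2, the complement receptor CD21 of mature B cells, was seen in 17.1% and 15.2% of thinned members (33.2% and 29.7% before) and 0.481% and 0% of T cells. Of the markers of other B cell states, Vpreb3, a gene of immature B cells, was still at 224 and 276 CPM, Cd93 at 7.24 and 5.05 CPM, and the plasma cell gene Sdc1 at 7.56 and 4.60 CPM.

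Set beside the Fcer2a-zero B cells of the same library, the members had somewhat more of most follicular genes, with few past the size rule, and less of most measured genes on the list of B1, memory and age-associated cells. The gate separates these groups by Fcer2a, and these values are a description, not a test. Past a size rule (a ratio of CPM plus 10 of at least 1.5 and an interval that excludes 1) lay, in wt, 19 of 9313 measured genes (0.204%) toward the members and 117 (1.26%) toward the Fcer2a-zero cells. In db/db these were 20 of 9170 (0.218%) and 39 (0.425%). Of 13 follicular genes outside the gate, 11 were higher in the members of each library, with 0 past the rule in wt and 1 (Cr2) in db/db. Cr2 was at 202 against 147 CPM (wt) and 174 against 107 CPM (db/db), and Ighd at 1716 against 1279 CPM (wt) and 1652 against 1349.9 CPM (db/db). Tnfrsf13c, the BAFF receptor gene, was lower in wt members and near level in db/db, at 266 against 354 CPM (wt) and 286 against 275 CPM (db/db), as was the gate gene Ms4a1 (CD20), at 1185 against 1713 CPM (wt) and 1056 against 1076 CPM (db/db). Ciita, the master activator of MHC class II genes, was at 393 against 277 CPM (wt) and 313 against 258 CPM (db/db), and 11 and 12 of 12 class II genes were higher in members. Over all measured genes 4099 of 9313 (wt) and 4919 of 9170 (db/db) were higher in members. The class II median log2 ratio was 0.274 in wt and only 0.065 in db/db, with 1 gene past the rule in wt and 0 in db/db. Rasgrp3, which links the B cell receptor to Ras, was at 149.9 against 100.0 CPM (wt) and 125 against 98.9 CPM (db/db), and Bcl6, the repressor that shapes germinal centre B cells, at 47.2 against 34.3 CPM (wt) and 24.4 against 14.5 CPM (db/db).

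Other genes were lower in members than in Fcer2a-zero cells. In db/db Igha, the IgA constant gene, was at 19.8 against 358 CPM, and Jchain, which joins the units of IgA and IgM, at 1.38 against 125 CPM. The wt library showed no such gap. There Igha was at 5.67 against 8.37 CPM (18 and 20 UMIs), a ratio of 0.677 with an interval of 0.338 to 1.35. Jchain had 1 UMI in each wt group. S100a6, a calcium-binding protein of memory-type and B1 cells, was at 62.3 against 229 CPM (wt) and 81.3 against 251 CPM (db/db). Few cells of either group held it: 2.69% against 6.11% after thinning in wt and 3.33% against 9.27% in db/db. Vim (vimentin) was at 264 against 497 CPM (wt) and 347 against 524 CPM (db/db), Ahnak, a giant scaffold protein, at 127 against 216 CPM (wt) and 129 against 198 CPM (db/db), and Plac8 at 285 against 481 CPM (wt) and 292 against 418 CPM (db/db). These last 4 lay lower in members in both libraries. The rule for this comparison also named Stam2, Tmem108, Fam102a, Smagp and Casp4 as higher in members (log2 ratios of CPM plus 10 from 0.37 to 0.45), and Arhgef12, Smim10l1, Rilpl2, Rpn1 and Akap12 as lower (from -1.52 to -0.42). Only 1 of 11 measured B1, memory and age-associated genes was higher in wt members and 2 of 12 in db/db, with 6 and 3 past the size rule downward. Transitional genes split by library: 0 of 5 were higher in wt members, 4 of them past the rule downward, against 3 of 4 in db/db with none past it. Vpreb3 was at 224 against 577 CPM (wt) and 276 against 274 CPM (db/db), and the difference of its log2 ratio between the libraries, on plain CPM, was 1.38 with an interval of 1.17 to 1.58.

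**Figure D2:**
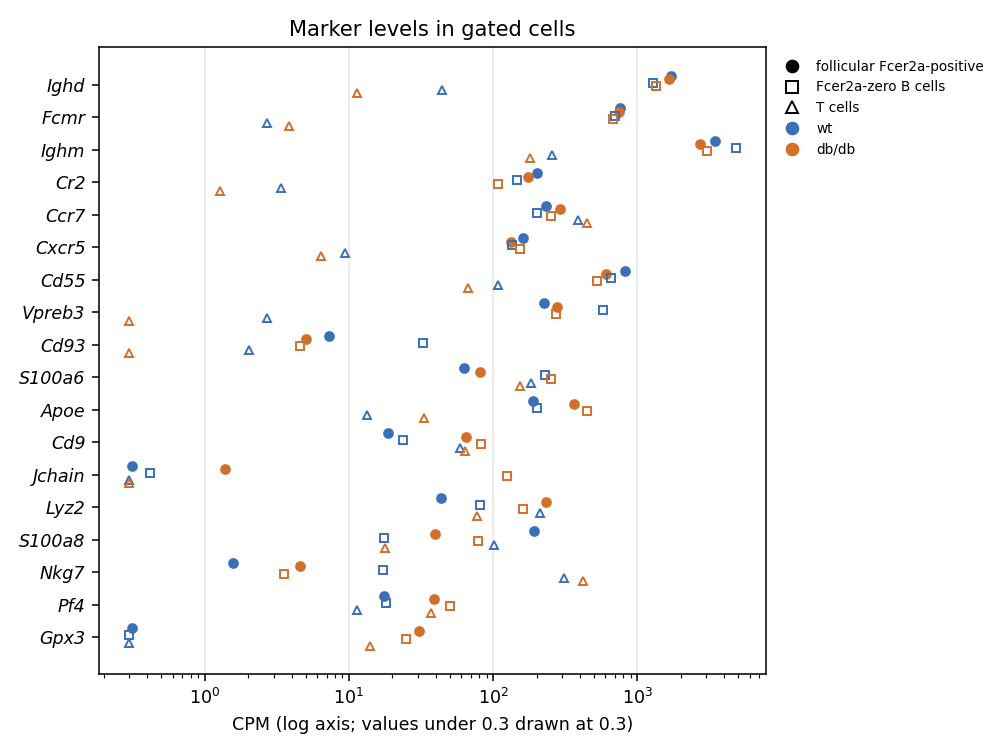
CPM (log axis, values under 0.3 drawn at 0.3) of 18 marker genes in members (filled circles), Fcer2a-zero B cells (squares) and T cells (triangles), wt in blue and db/db in orange. Vpreb3 lies at 577 CPM in the wt Fcer2a-zero B cells and between 224 and 276 CPM in the other B cell groups.

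Over the classes of Fcer2a UMIs the values varied by gene, as the plot by Fcer2a UMIs shows, and cells with more Fcer2a UMIs were also read more deeply (median 2166, 2270 and 2735 UMIs in wt for 1, 2 and 3 or more, and 2134, 2183 and 2478 in db/db). At 0, 1, 2 and 3 or more Fcer2a UMIs, Ighd was at 1279, 1644, 1809 and 1734 CPM in wt and 1349.9, 1552, 1743 and 1906 CPM in db/db. Cr2 was at 147, 186, 192 and 234 CPM in wt and 107, 171, 162 and 205 CPM in db/db. Both were lowest in the Fcer2a-zero cells of each library. S100a6 was at 229, 58.97, 64.02 and 65.6 CPM in wt and 251, 98.6, 49.5 and 63.2 CPM in db/db, with the widest step between 0 and 1 UMI in both. Among the wt members its intervals overlapped. Crip1, a small LIM protein, was at 853, 549, 419 and 393 CPM in wt and 536, 450.5, 379 and 331 CPM in db/db, lower in each class than in the one before. Its intervals overlapped between 2 and 3 or more UMIs in both libraries, and between 1 and 2 UMIs in db/db. Vpreb3 was at 577, 232, 254 and 186 CPM in wt and near level in db/db at 274, 274, 261 and 310.1 CPM. Vim was at 497, 277, 250.3 and 257 CPM in wt and 524, 402, 279.8 and 235 CPM in db/db, with intervals that overlapped between the libraries at 2 and at 3 or more UMIs.

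**Figure D3:**
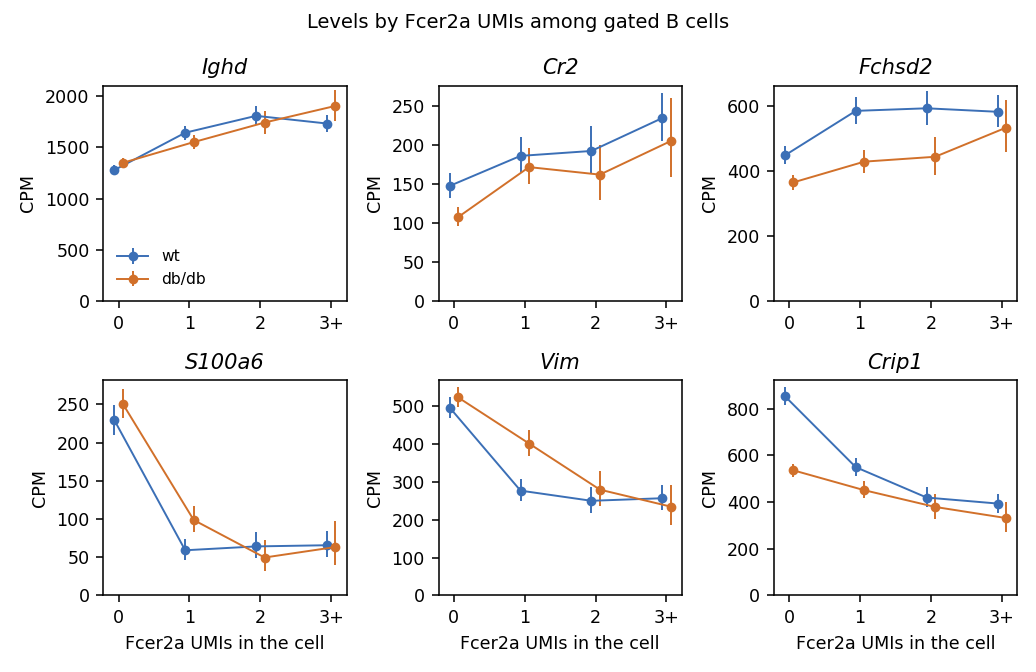
CPM (vertical axis from 0) with exact Poisson 95% intervals of Ighd, Cr2, Fchsd2, S100a6, Vim and Crip1 in gated B cells with 0, 1, 2 and 3 or more Fcer2a UMIs, wt and db/db libraries. The S100a6 level at 0 UMIs (229 CPM in wt, 251 CPM in db/db) stands above the other classes in both libraries.

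Most members held Ighd, a transcript of unswitched cells. An Ighd UMI was found in 1208 wt members (94.4%) and 836 db/db members (91.7%), against 13.7% and 3.69% of T cells. An Ighm UMI was found in 98.7% and 97.04% of members but also in 55.6% and 38.5% of T cells. After thinning these shares were 94.1% and 89.7% of members and 23.6% and 16.3% of T cells. Ighd made up 33.2% of the Ighd and Ighm UMIs in wt and 37.7% in db/db, and 21.1% and 30.9% in Fcer2a-zero cells. Class-switched transcripts were rare in both and more frequent in db/db: 2 or more Ighg or Igha UMIs were found in 6 wt members (0.469%, 0.172 to 1.02) and 27 db/db members (2.96%, 1.96 to 4.28), intervals that do not overlap. Ighg2b, the IgG2b constant gene, was in 5 wt members and 26 db/db members (23 and 116 UMIs), and Igha in 12 and 20 cells (18 and 43 UMIs). Cells with neither Ighd nor Ighm UMI numbered 4 in wt (0.313%) and 20 in db/db (2.19%). Fcer2a-zero cells had 2 or more switched UMIs in 17 of 1065 cases in wt (1.60%) and 66 of 1238 in db/db (5.33%), so the libraries differed the same way there. No T cell of either library had an Ighg2b UMI (0 of 417 and 0 of 244).

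For the light chain, 1235 wt and 905 db/db members had at least 5 light-chain UMIs. A cell was put in the kappa or lambda class where at least 80% of them were Igkc or Iglc1, Iglc2 and Iglc3. The kappa class held 48.1% (45.3 to 50.9) of the wt and 54.7% (51.4 to 57.97) of the db/db cells, the lambda class 4.62% (57 cells) and 3.54% (32 cells), and 47.3% and 41.8% were in neither. An Iglc2 UMI was seen in 62.2% and 62.3% of thinned members (82.8% and 84.3% before), far more cells than the lambda class holds, and in 1.20% and 0% of thinned T cells. An Igkc UMI was seen in 96.3% and 97.2% of thinned members and in 7.45% and 4.18% of T cells. Iglc2 and Iglc3 are near-identical copies whose reads can be split between them, so their separate values (1365 and 1185 CPM and 928 and 872 CPM) are uncertain.

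Between the genotypes, 236 of 9243 measured genes (20 or more UMIs over both libraries) were past the same size rule (2.55%). Of them 116 were higher in db/db (1.26%) and 120 lower (1.3%). The median log2 ratio over all measured genes was -0.01, and 4715 of the 9243 (51.0%) were lower in db/db by any amount. That share is the base for the list counts below. The count depends on the pseudocount: it was 640 with 1 in place of 10 CPM and 40 with 50. The rule for naming took the 15 highest and 15 lowest, with at least 50 UMIs in the higher library and a level of at least 10% of the highest in any other gated class. They are drawn in the plot of named genes.

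RNA of other blood cells was present and differed between the libraries. All 7 measured genes of a 10-gene monocyte list were higher in db/db members and 6 passed the size rule. Lyz2, the lysozyme of myeloid cells, was at 43.1 and 234 CPM, but came from 59 wt members and 54 db/db members, with 275 of its 509 db/db UMIs in 1 cell, and a similar share of T cells held it (6.24% and 8.61%). Of the neutrophil list 5 of 7 measured genes were lower in db/db, 3 of them past the size rule. S100a8 was at 191 and 39.5 CPM, and 267 of its 608 wt UMIs lay in 1 cell. Platelet genes leaned toward db/db, with 4 of 9 measured past the size rule and Gng11 in 4.61% of wt and 11.6% of db/db members. Haemoglobin took a median 1.16% of UMIs in wt and 1.52% in db/db. Of kidney tubule genes, Gpx3 had 1 wt and 67 db/db UMIs, and was in 4.93% of db/db members and 4.10% of db/db T cells, which is at the background level. Its log2 ratio, 1.98, was 0.26 at a mitochondrial limit of 20%. The defining T cell genes Cd3d, Cd3e and Cd3g were at 0 by the rule, 1 of 14 T cell genes and 0 of 8 dendritic cell genes reached 20 UMIs, and of 8 NK cell genes Gzma (32 and 46 UMIs) and Prf1 (15 and 10 UMIs) did. Cells with at least 2 UMIs of NK, monocyte or neutrophil markers were 36 in wt (2.81%) and 32 in db/db (3.51%). T cell markers were not part of that count. Without these cells 227 genes passed the size rule. The medians of the interferon and glucocorticoid lists described further on were then -0.35 and 0.56, against -0.37 and 0.55 with them. Over 3 times the median depth was reached by 6 wt and 7 db/db members. The part of RNA from other cells in the remaining results was not tested.

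**Figure D4:**
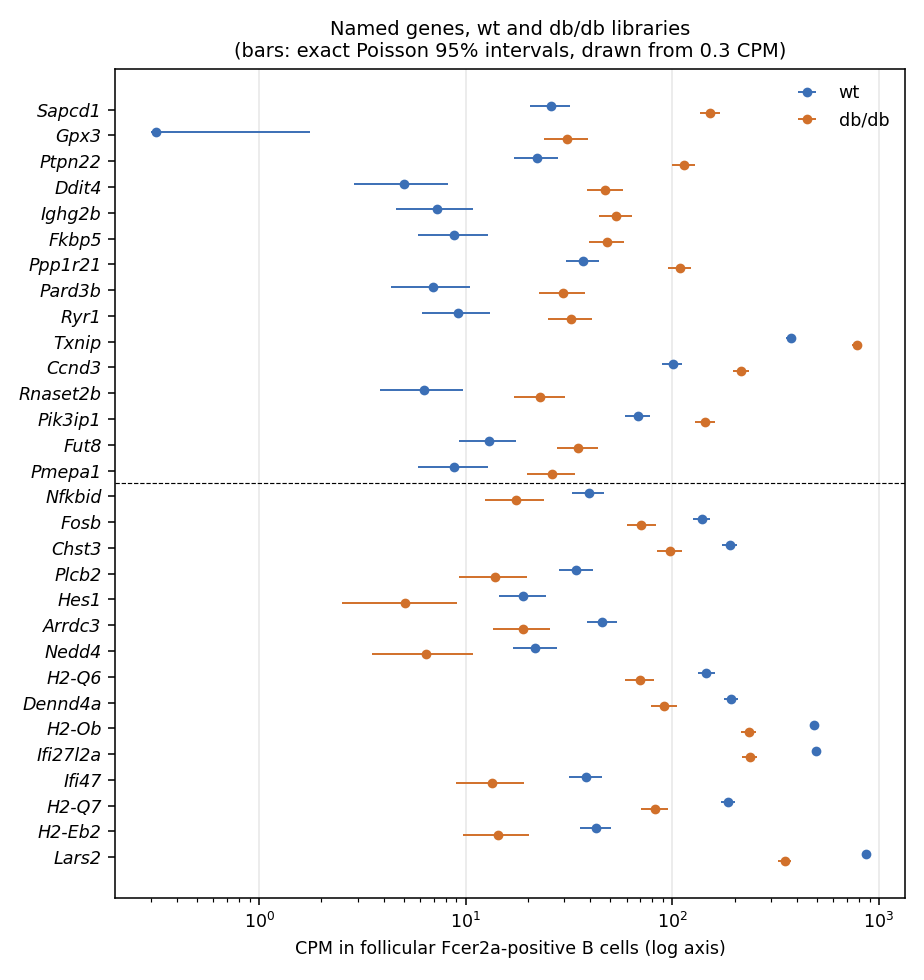
CPM (log axis) of the 30 named genes in members, wt in blue and db/db in orange, with exact Poisson 95% intervals drawn from 0.3 CPM. Genes are ordered by log2 ratio of CPM plus 10, from Sapcd1 at 2.18 to Lars2 at -1.28, with a dashed line between the higher and the lower genes.

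The highest of them was Sapcd1, whose product is poorly characterised and which lies at chr17:35025959-35028016 on GRCm38 within the MHC region. It was at 25.8 CPM (wt) and 152 CPM (db/db), from 82 and 331 UMIs, a ratio of 5.89 with an interval of 4.61 to 7.60. It was found in 2.12% and 12.7% of thinned members (5.39% and 25.4% before) against 0.240% and 0% of T cells. Ptpn22, a phosphatase that damps antigen receptor signalling and lies at chr3:103859795-103912247, was at 22.04 CPM (wt) and 114 CPM (db/db), a ratio of 5.15 with an interval of 3.94 to 6.82. It was found in 1.71% and 10.4% of thinned members and in 12.7% and 14.6% of T cells. In both genes the db/db level of members was several times the wt level, but only Ptpn22 has a sizeable T cell level. Ppp1r21 was at 36.8 and 108 CPM with a T cell log2 ratio of -0.08, and its neighbour Ston1 (chr17:88597684-88662586) had 0 wt and 31 db/db UMIs, at least 15.1-fold higher against a floor of 3 counts in wt. Pard3b, a polarity protein, was at 6.93 and 29.4 CPM, Ryr1, a calcium channel of the endoplasmic reticulum, at 9.13 and 32.2 CPM, Ccnd3, cyclin D3, at 100.1 and 215 CPM and Fut8, the core fucosyltransferase, at 12.9 and 34.9 CPM. Rnaset2b was at 6.30 and 22.98 CPM and Pmepa1 at 8.81 and 26.2 CPM. By position, 9 of the 30 named genes lie on chromosome 17, where 20 of 487 measured genes (4.11%) were past the size rule, beside 2.55% of all measured genes, a count made after the values were seen. Chromosome 19 had nearly the same share, 14 of 342 (4.09%).

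Genes known as induced by glucocorticoids were mostly higher in db/db members. Of 13 measured of a 16-gene list, 10 were higher, 6 past the size rule upward, and 1 past it downward, with a median log2 ratio of 0.55 against -0.01 over all genes. Txnip, which binds thioredoxin and limits glucose uptake, was at 374 CPM (wt) and 779 CPM (db/db), from 1189 and 1695 UMIs, a ratio of 2.08 with an interval of 1.93 to 2.24. It was found in 29.99% and 52.7% of thinned members (54.4% and 79.1% before). The db/db level was about as far above wt in T cells (472 and 966 CPM). Fkbp5, a brake on the glucocorticoid receptor, was at 8.81 and 48.3 CPM and Ddit4, an inhibitor of mTORC1, at 5.04 and 47.3 CPM. Pik3ip1, an inhibitor of PI3K, was at 68.0 and 144 CPM and Sesn1 at 66.1 and 131 CPM. Zbtb16 had 0 wt and 39 db/db UMIs, at least 18.98-fold higher against a floor of 3 counts. Tsc22d3 (GILZ) was at 459.9 and 679 CPM, log2 0.55, just under the size rule, and Per1, a clock gene, went the other way at 19.2 and 8.27 CPM. The list's median was 0.61 in Fcer2a-zero B cells and 0.48 in T cells, so members were not alone in it.

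The Txnip promoter is shown because Txnip had the most UMIs of the genes past the size rule upward. It is given from RefSeq on build GRCm38.p6, as the 250 bases before the start on the + strand (chr3:96557707-96557956). Capitals mark matches to the glucocorticoid response element GNACANNNTGTNC, whose first base is 172 before the start, and to the carbohydrate response element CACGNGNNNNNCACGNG, whose first base is 85 before it, both strands searched.
Txnip: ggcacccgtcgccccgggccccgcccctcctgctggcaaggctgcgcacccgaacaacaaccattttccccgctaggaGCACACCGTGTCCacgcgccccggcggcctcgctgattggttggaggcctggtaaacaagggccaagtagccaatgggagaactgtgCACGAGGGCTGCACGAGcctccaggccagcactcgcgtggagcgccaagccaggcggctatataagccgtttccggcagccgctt
In all 32851 promoters of this table the glucocorticoid motif occurs in 156 (0.475%) and the carbohydrate motif in 16 (0.0487%), counted over 250 bases before and 50 after each start. Of 12 measured genes of the glucocorticoid list in the table, 2 had the first motif (Sgk1 and Txnip) and 1 the second (Txnip). Sgk1 was level between the libraries, at a log2 ratio of -0.008, while that of Txnip was 1.04. A match is a letter match in this window and was not tested for binding.

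Interferon-stimulated genes were lower in db/db members almost throughout. Of 36 measured of a 39-gene list, 35 were lower and 6 past the size rule downward, none upward, with a median log2 ratio of -0.37. Among these were Ifit2 (37 and 7 UMIs), Rtp4 (43 and 10 UMIs), Ifi27l2a, Slfn5 and Ddx58. Ifi27l2a was at 497 CPM (wt) and 236 CPM (db/db), log2 -1.04, found in 28.1% and 15.1% of thinned members. Ddx58, the RNA sensor RIG-I, was at 74.3 and 42.7 CPM. Isg15 was at 14.8 and 8.27 CPM, short of the size rule, and Ly6e, the single higher gene, at 1924 and 1966 CPM. The same list had a median of -0.37 in Fcer2a-zero B cells and -0.43 in T cells. Ifi47, a GTPase outside the list, was at 38.1 and 13.3 CPM.

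Promoters of this list are shown for the interferon-stimulated response element (ISRE), here GAAANNGAAA on either strand, as 30 bases 5′ to 3′ with the match in capitals. It was in 14 of the 26 listed genes matched in the RefSeq table (53.8%), in 293 of 7270 measured genes (4.03%) and in 1131 of 32851 promoters (3.44%). Ifi203, Ifi206 and Ifi213 lie together on chromosome 1 and share the same 10 letters, and Ifit3 and Slfn5 differ from them. Ifit3 has 2 matches, and only the one further from the start is shown. Matches start 35, 40, 73, 156 and 155 bases before the start, in that order; Ifi203, Ifi206 and Ifi213 are on the minus strand and the others on the plus strand.
Ifi203 (chr1:173942508-173942537, -): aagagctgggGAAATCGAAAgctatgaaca
Ifi206 (chr1:173491339-173491368, -): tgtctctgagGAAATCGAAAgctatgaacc
Ifi213 (chr1:173599326-173599355, -): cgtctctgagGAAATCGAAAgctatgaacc
Ifit3 (chr19:34583363-34583392, +): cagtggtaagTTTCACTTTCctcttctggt
Slfn5 (chr11:82951937-82951966, +): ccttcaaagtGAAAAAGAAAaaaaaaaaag
Their log2 ratios were -0.21 for Ifi203, -0.33 for Ifi206, -0.43 for Ifi213, -0.19 for Ifit3 and -0.59 for Slfn5. A letter match was not tested for binding.

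MHC genes differed among themselves. Of 16 class I genes 12 were lower in db/db and 3 passed the size rule downward: the classical H2-K1 (1161 and 762 CPM, log2 -0.60) and the non-classical Qa-2 genes H2-Q6 (146 and 69.8 CPM) and H2-Q7 (186 and 82.3 CPM), close copies whose reads can be split. H2-K1 fell under the fold of the size rule (0.58 on the log2 scale) at a mitochondrial limit of 5% (-0.53), with at least 2 Fcer2a UMIs (-0.53), after thinning (-0.56) and with a pseudocount of 50. H2-D1, the other classical heavy chain, went the other way at 1865 and 2482 CPM, log2 0.41. The peptide transporter genes Tap1 and Tap2 were at 129 and 83.6 CPM and 66.4 and 44.1 CPM. Of 12 class II genes 9 were lower and 2 passed the rule downward. These were H2-Ob, the beta chain of the H2-O inhibitor of peptide exchange in B cells at 487 and 234 CPM, a ratio of 0.481 with an interval of 0.434 to 0.532, and H2-Eb2 (42.5 and 14.2 CPM). The alpha chain gene H2-Oa was at 229 and 201 CPM. The abundant class II genes differed less: Cd74, the invariant chain, was at 11419.5 and 12689.7 CPM, H2-Aa at 4900.1 and 5861 CPM and H2-Ab1 at 3546 and 3196 CPM. An H2-Ob UMI was found in 37.4% and 18.8% of thinned members, 66.7% and 39.6% before.

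The B cell receptor, its coreceptors and their signalling genes were listed apart. None of 15 measured receptor and coreceptor genes passed the size rule and 11 were lower, with a median log2 ratio of -0.13. The lowest was the inhibitory lectin Cd22 at 327 and 219 CPM, log2 -0.56. Of 22 signalling genes 3 passed it. Ptpn22 was past the rule upward and the ubiquitin ligases Nedd4 (21.7 and 6.43 CPM) and Cblb (97.3 and 51.9 CPM) downward. Transcription factors were lower in 18 of 22, with Bach2, which holds B cells from plasma cell fate, at 317 and 205 CPM and Zeb2 at 126 and 68.9 CPM past the rule. Bach2 fell under its fold in 5 settings (-0.44 with at least 2 Fcer2a UMIs), and Zeb2 at a mitochondrial limit of 5% (-0.53) and with a pseudocount of 50 (-0.56). Klf2, which keeps lymphocytes recirculating, was at 1060.3 and 1300.0 CPM, log2 0.29. In the immunoglobulin list Ighm was at 3457 CPM (wt) and 2728 CPM (db/db), log2 -0.34, and Ighd at 1716 and 1652 CPM.

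Of the 13 follicular genes outside the gate, 10 were lower in db/db and none passed the size rule in either direction, with a median log2 ratio of -0.20. Cd55, a complement shield, was at 817 CPM (wt) and 607 CPM (db/db), while Ccr7, a lymph node homing receptor, was higher at 231 and 289 CPM. Cxcr5, the follicle-homing receptor, was at 162 and 133 CPM, S1pr1 at 257 and 214 CPM and Cr2 at 202 and 174 CPM. The log2 ratio of Cr2, -0.20, changed sign to 0.0217 at a mitochondrial limit of 5%. Of 21 measured trafficking genes, Emb, an adhesion protein that is abundant in other blood cells (up to 1252 CPM), passed the rule upward at 27.4 and 118 CPM. The BAFF receptor gene Tnfrsf13c (266 and 286 CPM) and the survival gene Bcl2 (172 and 196 CPM) did not pass it, nor did the other 13 survival genes.

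**Figure D5:**
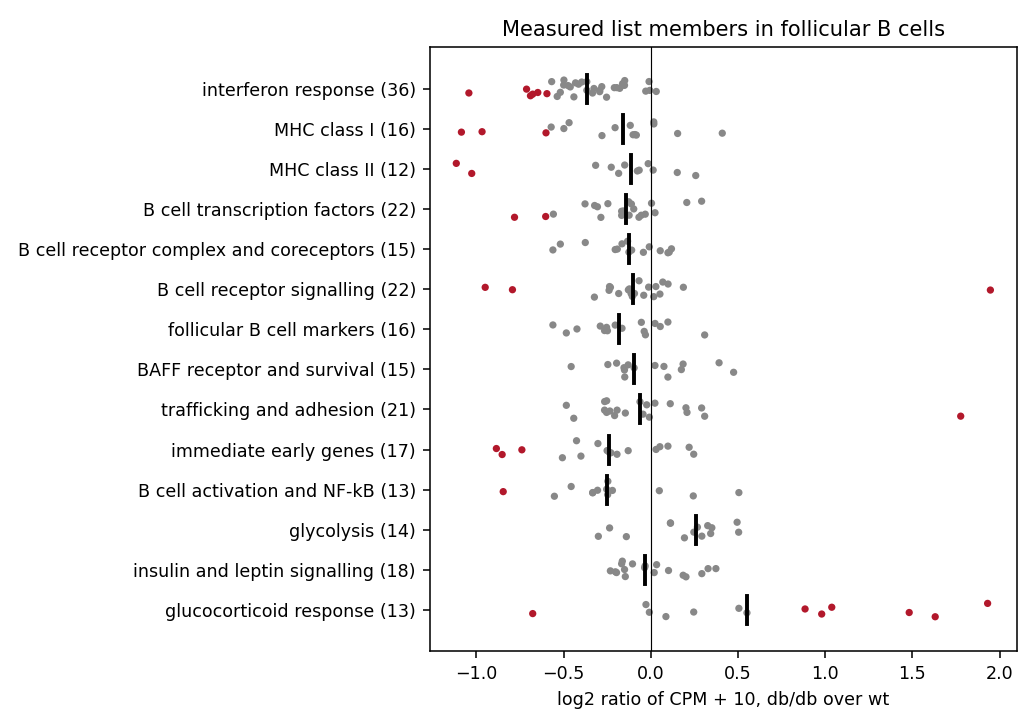
Log2 ratio of CPM plus 10, db/db over wt, of each measured gene of the gene lists in members (points, red where past the size rule) with the list's median as a bar. The interferon list centres at -0.37 and the glucocorticoid list at 0.55.

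Immediate early genes, which cells switch on within minutes of stimulation, were mostly lower in db/db. Of 17 measured immediate early genes 12 were lower and 3 past the size rule downward: Fosb (139 and 70.8 CPM), Egr1 (44 and 7 UMIs) and Egr3 (87 and 27 UMIs). Jun was at 72.1 and 47.8 CPM and Junb at 967 and 718 CPM. Of 13 measured activation and NF-kB genes 10 were lower, only Nfkbid (39.4 and 17.5 CPM) past the rule, and Cd40 was at 77.4 and 49.6 CPM. Among heat-shock chaperones 7 of 8 were lower and Hsph1 (141 and 49 UMIs) passed the rule. Ribosomal protein genes by name had 19 of 88 lower with a median of 0.21, and 13 of 13 mitochondrially encoded genes were lower with a median of -0.31, beside the shares given above for these classes.

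No gene of the glycolysis, respiratory chain, cholesterol or insulin and leptin lists was past the size rule. Glycolytic genes were lower in 3 of 14 and had a median of 0.26, with Ldha at 62.96 and 92.8 CPM and Eno1 at 78.1 and 115 CPM. Of 22 nuclear respiratory chain genes 8 were lower (median 0.07), of 15 cholesterol synthesis genes 8 (median -0.03), and of 18 measured insulin and leptin signalling genes 10 (median -0.03), with Insr, the insulin receptor, at 40.3 and 34.9 CPM. Of 15 unfolded protein response genes 11 were lower, and Herpud1 (87.2 and 140.2 CPM) was the single one past the rule, upward. The remaining named lower genes included Lars2, the mitochondrial leucyl-tRNA synthetase, at 864 CPM (wt) and 351 CPM (db/db), Dennd4a at 192 and 91.4 CPM, Chst3 at 189 and 96.96 CPM, Arrdc3, an arrestin-like protein, at 45.6 and 18.8 CPM, Plcb2, a phospholipase C, at 34.3 and 13.8 CPM and Hes1, a Notch target, at 18.9 and 5.05 CPM. Plcb2 fell under the fold of the size rule at a mitochondrial limit of 5% and with a pseudocount of 50. Lars2 was lower in db/db, as was the median share of the rRNA-overlapping Gm42418 (2.60% in wt and 0.453% in db/db). A link between them was not tested.

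Few genes of other B cell programmes were past the size rule. Of 16 B1, memory and age-associated genes 11 were measured, 3 were lower, and Itgam (6 and 20 UMIs) and Apoe (188 and 365 CPM) were past the rule upward. Apoe reached 4904 CPM in another class. An Apoe UMI was found in 21.03% and 33.9% of members and in 4.08% and 2.46% of T cells, which had 13.4 and 33.0 CPM. Cd9, a tetraspanin of marginal zone and B1 cells, was at 18.6 and 64.3 CPM, with a UMI in 3.99% and 12.8% of members and 17.03% and 16.8% of T cells, which had 59.1 and 63.5 CPM. The transitional gene Sox4 (76 and 22 UMIs) and the germinal centre gene Bcl6 (150 and 53 UMIs) were past the rule downward, and Cd24a was at 190.5 and 148 CPM.

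To see how far the genotype difference was shared, each named gene was set beside its difference in the other cells of the same libraries. All 30 named genes were on the same side of 0 in Fcer2a-zero B cells and 21 of 30 in T cells. For 25 of the 29 genes with an interval, the difference between the log2 ratios of members and of Fcer2a-zero cells had an interval that includes 0, which does not show that they are alike. Sapcd1 was at 26.8 and 141 CPM in Fcer2a-zero cells and Ptpn22 at 32.2 and 129 CPM. These differences are of plain CPM ratios with no pseudocount, which run wider for low genes. Over all named and listed genes the interval excluded 0 for 88 of 391, among them Vpreb3, given above, and Cd93, a marker of immature B cells, which differed by 2.31 with an interval of 0.97 to 3.64, or by 1.35 on the scale of CPM plus 10. Positive values mean a larger db/db over wt ratio in members. Ighm differed by 0.32 with an interval of 0.26 to 0.38, where Fcer2a-zero cells were at 4784 and 3025 CPM. Ly6a, an interferon-inducible antigen, differed by -0.64 with an interval of -0.86 to -0.43, with 274 and 298 CPM in Fcer2a-zero cells. H2-Ob differed by -0.32 with an interval of -0.53 to -0.12 and Ifi27l2a by 0.36 with an interval of 0.16 to 0.56. In T cells Nedd4 had a log2 ratio of 1.12 against -0.95 in members, from 18 and 30 T cell UMIs, and H2-Q7 -0.96 against -1.09.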

How the data were processed

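Per the labels the libraries were made with 10x 3' chemistry, and per the submitters' processing notes the authors used Cell Ranger 3.0.2 on build mm10. What was deposited is a matrix of raw counts of UMIs for each library, genes by barcodes, unscaled. The annotation used for counting is not given in the sources used here. Follicular B cells were selected in each matrix by the gate given above. Their counts, and those of comparison gates, were summed per library with Python 3.11.15 (numpy 2.4.6, scipy 1.17.1, pandas 2.3.3) and given as CPM with exact Poisson intervals, ratios with exact conditional binomial intervals and shares with Clopper-Pearson intervals. Each genotype is 1 library, so there is no test and no p-value, and depth sets only the counting error. Log2 ratios use CPM plus 10. Genes needed 20 UMIs in both libraries together. No doublet caller was run; limits on T and platelet genes stood in for one. The members, lists, naming rule (15 highest and 15 lowest log2 ratios; 8 each way against Fcer2a-zero cells; mitochondrial, ribosomal, haemoglobin, sex-linked, variable-segment and unnamed genes left out) and tests were chosen with earlier results of these data known. Positions are from GENCODE M21 on GRCm38, promoters from RefSeq. Scripts were tested on simulated data. Some listed genes are not reported here. Alternatives are given below.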

Additional observations from a re-analysis of the deposited data

How the results depend on the processing

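The alternatives changed the gate, the totals, the pseudocount, the weight of cells and the thinning. The ratio of the share of kept barcodes (0.668) was 0.831 at a mitochondrial limit of 5%, 0.600 at a haemoglobin limit of 2%, 0.465 with at least 2 Fcer2a UMIs and 0.558 with no platelet marker, and the share of gated B cells (0.777) was 0.541 with at least 2 Fcer2a UMIs, below 1 in each. Under each of those 4 gates 1 glucocorticoid gene was lower in place of 3. The count of genes past the size rule (236, 116 higher and 120 lower) was 426 (184 and 242) with at least 2 Fcer2a UMIs, 426 (202 and 224) with totals without abundant classes, 640 (298 and 342) with a pseudocount of 1, 40 (23 and 17) with 50, and 446 (199 and 247) after thinning to 1000 UMIs. The lower count was 192 with no platelet marker and 186 where every cell weighs the same. Cr2 reversed, from -0.20 to 0.0217 at the 5% mitochondrial limit. The cause of these moves was not tested. Of 35 genes past the fold of the size rule, 17 fell under it in some setting and 6 in a setting other than the pseudocount of 50, among them Bach2, H2-K1, Zeb2, Plcb2 and Gpx3. Of 765 values of 45 genes over 17 settings, 706 stayed within the counting interval of the value reported, 58 moved further and 1 reversed. No paired analysis was possible because each genotype has 1 library and the labels give no replicate numbers. Depth limits what is said to genes with at least 20 UMIs.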
